A study of Saccharomyces cerevisiae with 24 samples.

Results

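Untreated pre-40S particles from budding yeast cells with the mL form of Rrp5 were compared with untreated particles from cells with wild-type (WT) Rrp5, by reading mutations and depth along the RDN37 transcript in each library. The comparison took 6 of the 24 libraries of the series, 3 mL Rrp5 H375A libraries without DMS and 3 WT Rrp5 H375A libraries without DMS. Nucleotides of all 4 bases were kept where the effective depth, the number of reads that could report a mutation, was at least 50 in all 6 libraries. This held for 3883 of the 6858 nucleotides of RDN37, of which 561 lay in the 5′ external transcribed spacer (5′ ETS), 1481 in 18S, 68 in internal transcribed spacer 1 (ITS1), 117 in 5.8S, 1656 in 25S, and 0 in ITS2 and 0 in the 3′ ETS. WT replicate 1 set this number, since 3883 of its own nucleotides reached the minimum, against 6645 to 6649 in each of the other libraries. A site was tested where the 6 libraries also held at least 30 mutations in sum, which left 213 sites.

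The study mapped rRNA structure with dimethyl sulfate (DMS) in pre-40S particles and in mature ribosomes. Both groups used here carried H375A and were grown in YPD to mid-log phase, and the particles were purified through TAP-tagged Utp9. They were processed in parallel with the DMS-treated samples, which received 1% DMS for 5 min at 30 °C, with the DMS left out. The design describes 3 biological replicates per condition. Neither the meaning of mL nor the protein that carries H375A is given in the sources used here.

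RNA polymerase I transcribes RDN37 from the rDNA array on chromosome XII as 1 precursor that holds 18S, 5.8S and 25S rRNA between spacers. Utp9 belongs to the UTP-A complex, which binds the 5′ ETS early, and Rrp5 is a large RNA-binding protein needed for the early cleavages at A0, A1 and A2 and for the path to the large subunit. Cleavage at A0 lies in the 5′ ETS, A1 forms the 5′ end of 18S, D its 3′ end, and A2 divides ITS1. TGIRT-III, the reverse transcriptase used for these libraries, can read through a base whose pairing face is altered and leave a mismatch. Without DMS, a mutated read can come from a natural modification, from copying or sequencing errors, or from a molecule whose sequence differs, and the counts do not tell these apart.

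The sequences below are RDN37 stretches as listed in the deposited profiles, written as RNA. The first line is the 5′ end of 18S, shown because the libraries differed most there in depth and because U3, C114, A119, U128 and C131, in capitals, are described below. The next lines show the other 3 called sites, the modified base U1191, and 4 further sites with high mutation rates, each with 12 nt on either side and the site itself in capitals.
18S positions 1 to 150: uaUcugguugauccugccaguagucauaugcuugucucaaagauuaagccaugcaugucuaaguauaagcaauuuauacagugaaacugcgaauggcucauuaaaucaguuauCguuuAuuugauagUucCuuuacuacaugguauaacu
18S U303: guucauucaaauUucugcccuauca
18S C956: auuugccaaggaCguuuucauuaau
25S A2384: aacgggcuuggcAgaaucagcgggg
18S U1191: gcuuaauuugacUcaacacggggaa
18S A67: augucuaaguauAagcaauuuauac
18S U517: aauuggaaugagUacaauguaaaua
18S A940: uaacuacugcgaAagcauuugccaa
25S A2896: ccuaucauaccgAagcagaauucgg

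The 2 groups differed in the evenness of their libraries. The median effective depth per nucleotide was 350, 358 and 558 in mL replicates 1 to 3, against 54, 610 and 402 in WT replicates 1 to 3. All mutated reads together numbered 8654, 10369 and 13050 in the mL libraries, against 1250, 249088 and 8454 in the WT libraries. WT replicate 1 was therefore the shallowest and WT replicate 2 held more mutated reads than the other 5 libraries together. At 89.5% of the kept nucleotides WT replicate 1 had no mutated read, against 34.2% to 52.9% in the other libraries. Rank correlations of depth along RDN37 were 0.907 to 0.946 among the mL libraries and 0.639 to 0.882 among the WT libraries, with both values under 0.7 involving WT replicate 2. Most results below are given by library, and some only as a group mean and SD or as a range. Intervals and floors cover counting error only, because PCR copies of a molecule count as separate reads.

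Depth along the transcript was set against the median depth of 18S in the same library, to see which precursor regions the particles held. The 5′ ETS stood at 1.53, 1.58 and 1.68 times the 18S depth in the mL libraries, against 1.43, 0.864 and 1.64 times in the WT libraries. All mL values exceeded those of WT replicates 1 and 2, while WT replicate 3 lay within the mL range. The mean ratio was 1.60 ± 0.0768 with mL and 1.31 ± 0.401 with WT (SD, n = 3 each), which is 1.22-fold higher in mL with an exact two-sided permutation p of 0.3. The smallest p that 3 libraries against 3 can give is 0.1. Without WT replicate 2 the fold was 1.04. In untreated mature ribosomes of the common laboratory strain BY4741, the 5′ ETS had 0.000272 to 0.000563 times the 18S depth, so the spacer that marks an early precursor was present in all 6 pre-40S libraries.

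Within the 5′ ETS, the part upstream of A0 reached 1.73 ± 0.0924 times the 18S depth with mL and 1.38 ± 0.430 times with WT (exact p = 0.3). The 90 nt between A0 and A1 had 0.683, 0.684 and 0.743 times the 18S depth in the mL libraries, against 0.464, 0.373 and 0.683 times in the WT libraries. The groups meet at WT replicate 3, whose 0.683 matches the lowest mL values to 3 digits (1.39-fold, exact p = 0.2). The deepest 5′ ETS site was A51 in every one of the 6 libraries, at 3.65 to 4.36 times the 18S median with mL and at 2.45 to 5.84 times with WT. In the treated libraries of the same strains the whole 5′ ETS stood at 2.25 ± 0.253 times the 18S depth with mL and at 1.65 ± 0.216 times with WT (SD, n = 3 each, exact p = 0.1).

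The depth of ITS1 was 0.433, 0.457 and 0.484 times that of 18S with mL, against 0.529, 0.348 and 0.538 times with WT. WT values lay on both sides of the mL range, and the groups were not separated (0.971-fold, exact p = 1). With mean in place of median depths the ITS1 ratio was 1.58 (exact p = 0.4) and that of the 5′ ETS 1.91 (exact p = 0.2). The 18S mean used there takes in C4 to U134. That stretch held 87.1% of all depth in WT replicate 2 and 6.66% to 22.3% in the other libraries. Neither the part of ITS1 before A2, which stays on the late 18S precursor, nor the part after it was separated (exact p = 0.7 and 0.9). Across the D site, the 25 nt before the cut were 1.87, 1.70 and 2.02 times as deep as the 25 nt after it with mL, against 1.68, 1.86 and 1.77 times with WT, so the groups overlapped. The same step was 109 to 351 times in mature BY4741 ribosomes, where 18S ends at that site.

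Although the particles are labelled pre-40S, 25S reached 0.816, 0.833 and 0.832 times the 18S depth with mL, against 0.700, 0.843 and 0.698 times with WT. WT replicates 1 and 3 lay below all mL libraries and WT replicate 2 above them (1.11-fold, exact p = 0.4). With mean in place of median depths the ratio was 2.06, with read depth in place of effective depth 1.13, and without WT replicate 2 it was 1.18 (exact p = 0.1 each, the smallest possible). The 2.06 has as its denominator the same 18S mean, which takes in the stretch that dominates WT replicate 2. With 25S divided into 3 equal parts, the groups did not overlap in the middle and the last part. The middle part had 0.847 ± 0.00704 with mL and 0.749 ± 0.0689 with WT, and the last part 0.856 ± 0.0194 with mL and 0.767 ± 0.0573 with WT (SD, n = 3 each, exact p = 0.1 for both). ITS2, the spacer between 5.8S and 25S, reached 0.267 ± 0.0675 times the 18S depth with mL and 0.253 ± 0.0514 times with WT (exact p = 0.8), against at most 0.00816 times in BY4741. With DMS, neither the middle nor the last part of 25S was separated (exact p = 0.3 and 0.4).

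In 100-nt bins of RDN37, scaled to the median depth of the library, 4 of 66 bins had groups that did not overlap (6.06%), and all 4 were lower in mL and in 18S. They began at 18S positions 1, 101, 301 and 1401. The first had 14.2, 9.86 and 6.29 times the library median with mL, against 26.3, 610 and 14.3 times with WT. The bins beginning at 301 and 1401 differed by 0.878-fold and 0.898-fold, far less than the first. None of the 4 was separated in the treated libraries.

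**Figure D1:**
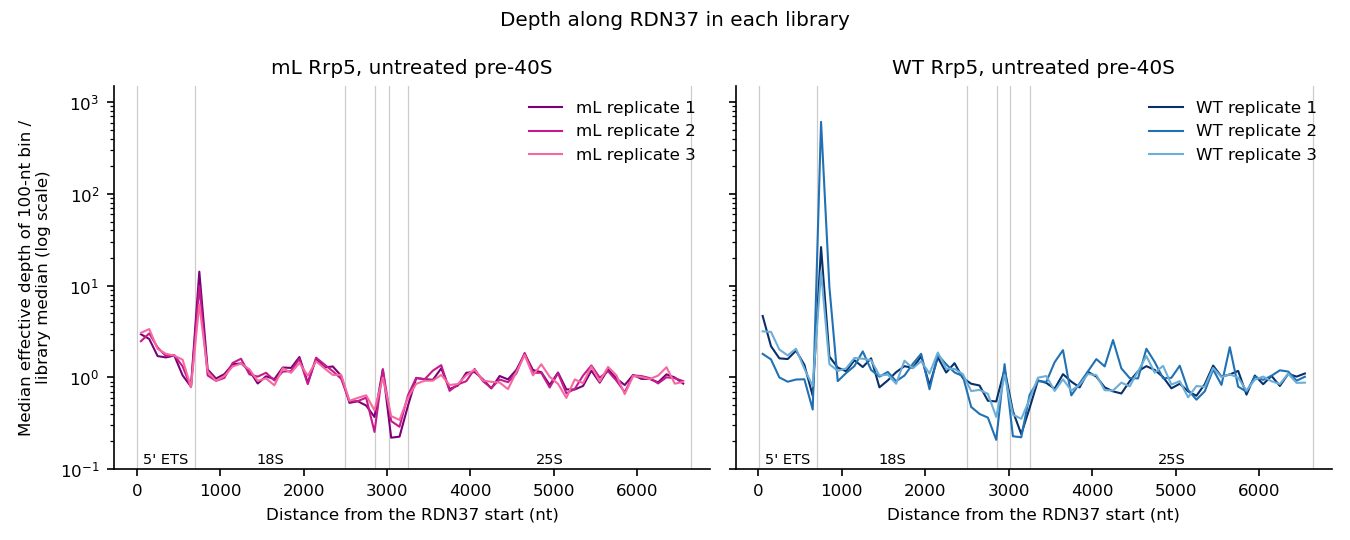
Median effective depth of 100-nt bins over the library median (log scale) against the distance from the RDN37 start, with 1 line per library, mL on the left and WT on the right, and grey lines at region bounds. The 3 mL libraries run close together, and the peak at the start of 18S is 6.29 to 14.2 in mL and 14.3 to 610 in WT.

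The start of 18S was read far more deeply than the rest of the transcript in all 6 untreated libraries, and more so in WT replicates 1 and 2 than in any mL library. Over C4 to U64 the median depth was 12.5, 8.82 and 5.72 times the 18S median with mL, against 20.8, 538 and 11.6 times with WT. WT replicates 1 and 2 exceeded every mL library, and WT replicate 3 lay below mL replicate 1. Over U77 to U113 it was 5.00, 3.53 and 2.42 times with mL, against 9.13, 324 and 4.79 times with WT, with the same order of libraries. Both windows were bounded by the stretches of high depth in WT replicate 2. The excess was absent from the treated libraries of the same strains, where C4 to U64 had 0.941 to 1.10 times the 18S depth with mL and 0.919 to 1.09 times with WT. Mature BY4741 without DMS had 1.53, 2.89 and 1.78 times.

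Runs of at least 5 nt above 10 times the 18S median were found at C4 to G23 and C25 to U64 in mL replicate 1 and in all 3 WT libraries. WT replicate 2 had them also at U77 to U113 and U128 to U134, and mL replicates 2 and 3 had none. The deepest single site was C59 or C36, with 5387, 3788 and 3819 reads in the mL libraries, against 1525, 399112 and 6203 in the WT libraries. The stretch C4 to U134 took 13.7%, 9.97% and 6.66% of all depth with mL, against 22.3%, 87.1% and 13.3% with WT. It took 20.01%, 12.7% and 9.12% of all mutated reads with mL, against 44.6%, 90.9% and 25.01% with WT. The bounds of this stretch came from WT replicate 2, the library deepest in it, so these shares do not test the groups. The share of mutated reads was higher in every WT library than in any mL library, whereas the shares of depth overlapped at WT replicate 3. What these reads come from was not tested.

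**Figure D2:**
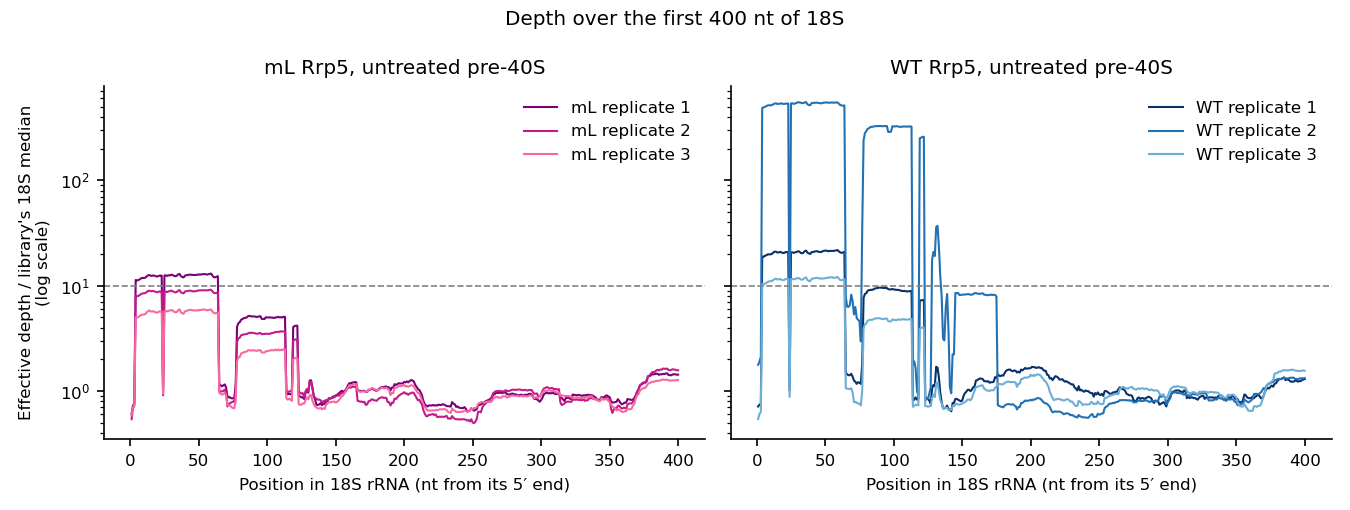
Effective depth over the library's 18S median (log scale) at the first 400 nt of 18S, mL on the left and WT on the right, with 1 line per library and a dashed line at 10 times. All 6 libraries step up over C4 to U64, again over U77 to U113, and briefly from A119. WT replicate 2 reaches 553 times and alone exceeds 10 times over U128 to U134.

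A119 lies inside this stretch and was the most mutated of the kept sites. It was mutated in 77.3%, 67.1% and 59.9% of reads with mL, against 88.1%, 99.6% and 81.0% with WT. Every WT library was above every mL library (68.1% ± 8.76 with mL and 89.6% ± 9.42 with WT, SD, n = 3 each, exact p = 0.1). With the treated libraries of the same strains the rate was 1.53% to 3.35% with mL and 0% to 3.16% with WT, and in untreated BY4741 it was 2.29%, 78.5% and 3.97%. Reads without a mutation at A119 numbered 380, 412 and 515 with mL, against 60, 655 and 382 with WT. At the neighbouring U116 the depth was 389, 410 and 543 with mL, against 61, 1190 and 380 with WT. Outside WT replicate 2, the unmutated reads at A119 were thus 0.948 to 1.01 times the depth found at U116, while in that library they were 0.5504 times.

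C131, a few bases on, was mutated in 22.3%, 19.4% and 10.9% of reads with mL, against 31.1%, 58.6% and 26.5% with WT. Here too the groups did not overlap (exact p = 0.1). edgeR's quasi-likelihood test, fitted over the 213 sites with a scale factor for each library, called neither site (log2 -0.35, adjusted p = 0.763 for A119 and log2 -1.01, adjusted p = 0.191 for C131).

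Guanine was the one base at which the untreated mutation rates of the strains did not overlap. Over the 1090 kept G sites the mean mutation rate was 0.366%, 0.437% and 0.387% with mL, against 0.227%, 0.237% and 0.312% with WT. All mL libraries lay above all WT libraries. The means were 0.397% ± 0.0363 with mL and 0.258% ± 0.0464 with WT (SD, n = 3 each), a ratio of 1.54 with an exact p of 0.1. These means take every kept site and so do not depend on which sites passed the filter on mutations. Leaving out any single library gave a ratio of 1.45 to 1.71, and leaving out the start of 18S gave 1.53.

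The G difference was found in each large region. Outside the start of 18S, the mean G rate in the 5′ ETS was 0.384% ± 0.0561 with mL and 0.225% ± 0.0820 with WT (SD, n = 3 each). It was 0.402% ± 0.0346 with mL and 0.251% ± 0.0734 with WT in 18S, and 0.411% ± 0.0321 with mL and 0.283% ± 0.0522 with WT in 25S. In these 3 regions the groups did not overlap (exact p = 0.1 each), while they overlapped over the 18 G sites of ITS1 and the 30 of 5.8S. With DMS the G rate was 0.467%, 0.466% and 0.448% with mL, against 0.316%, 0.405% and 0.427% with WT, which again did not overlap (1.20-fold, exact p = 0.1). Untreated BY4741 had 0.187%, 0.183% and 0.215% over the 924 of these sites it also covered, where the pre-40S libraries had 0.369%, 0.433% and 0.390% with mL and 0.238%, 0.228% and 0.320% with WT.

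The other bases showed no such separation without DMS. At A the mean rate was 0.272%, 0.348% and 0.292% with mL, against 0.204%, 0.442% and 0.233% with WT. At C it was 0.245%, 0.291% and 0.245% with mL, against 0.198%, 0.441% and 0.198% with WT. At U it was 0.192%, 0.268% and 0.209% with mL, against 0.150%, 0.502% and 0.150% with WT. At all of A, C and U, WT replicate 2 was the highest of the 6 libraries and the other 2 WT libraries the lowest (exact p = 1 for each base). Without WT replicate 2 the mL rate was the higher one at each base, at 1.39-fold for A, 1.31-fold for C and 1.48-fold for U, close to the 1.47-fold for G. With DMS the U rate was 0.172%, 0.149% and 0.137% with mL, against 0.335%, 0.176% and 0.225% with WT (0.622-fold, exact p = 0.1).

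**Figure D3:**
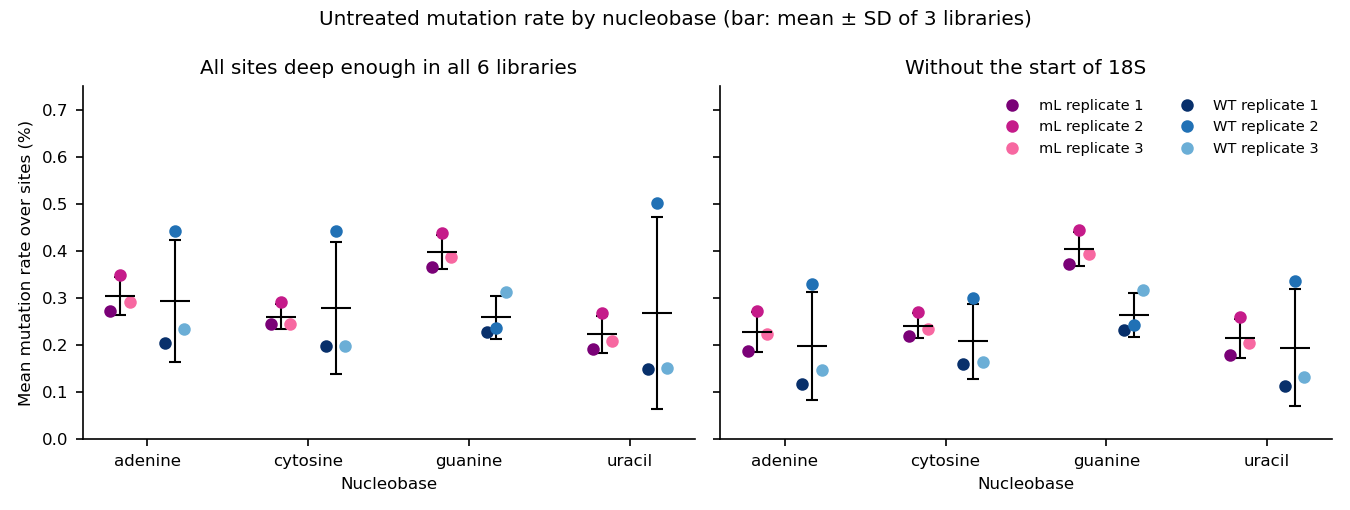
Mean mutation rate in percent by nucleobase for each untreated library (points, mL left of WT), with the mean ± SD of 3 libraries as bars. All kept sites are on the left panel and those outside the start of 18S on the right. Only at guanine do the 3 mL libraries, at 0.366% to 0.437% over all kept sites, lie wholly above the WT libraries, at 0.227% to 0.312%.

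At single sites, edgeR called 6 of 213 tested sites (2.82%), all lower in mL with these settings: 18S U3, C114, U128, U303 and C956, and 25S A2384. At 5 of the 6, all but U128, the other 5 libraries together held fewer than the 30 mutations that the test required, so these sites were tested only because of WT replicate 2, and no p is given for them. At each of the 6 WT replicate 2 was the highest of the pre-40S libraries, and without that library the edgeR count was 0, although 14 sites had an unadjusted p under 0.05. Without WT replicate 1 the count was also 0, without WT replicate 3 it was 15, of which 4 were higher in mL, and without any one of the mL libraries it was 2. The filter bears on this, because 118 of the 213 sites drew most of their mutations from WT replicate 2. Across all tested sites 132 were higher in mL and 81 lower, with a median log2 difference of 0.24, and 34 had an unadjusted p under 0.05.

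At U3, next to the start of the deep stretch, 1.90%, 1.96% and 0.871% of reads were mutated with mL, against 7.69%, 59.7% and 1.85% with WT. The groups overlapped at WT replicate 3, and only WT replicate 2 was above 10%. That library held 907 of the 933 mutated reads at U3 and 639 of the 648 at C114. C114 was mutated in 1.02%, 0.238% and 0.549% of reads with mL, against 0%, 49.5% and 0.275% with WT. Here the other 2 WT libraries lay within or below the mL range, and without WT replicate 2 the difference was log2 0.92, in the opposite direction.

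U128 was the one called site whose groups did not overlap. It was mutated in 14.1%, 11.6% and 7.95% of reads with mL, against 29.7%, 88.4% and 14.9% with WT (11.2% ± 3.08 with mL and 44.4% ± 38.9 with WT, SD, n = 3 each, log2 -1.72 ± 0.461, edgeR adjusted p = 0.00901). WT replicate 3 exceeded the highest mL library by less than 1 percentage point. The call was kept without WT replicate 3 and lost without any other single library, with edgeR adjusted p of up to 0.482. It was also lost at minimums of 10 mutations and 1 mutation (edgeR adjusted p = 0.759 and 0.869). The same held at a minimum mean rate of 0.005 and with the replicate number as a block (edgeR adjusted p = 0.673 and 0.198), and with limma (adjusted p = 0.423). It was kept without a library factor and at a minimum depth of 20 (edgeR adjusted p = 0.0277 and 0.00368), and with DESeq2 (adjusted p = 0.0303). The difference was negative in all of these fits. Without both WT replicates 1 and 2 it was log2 -0.95. U128 lies in the deep stretch, and its high rate was absent with DMS. There 0 of 190, 452 and 264 reads were mutated with mL, and 0% to 0.294% of reads with WT.

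The other 3 called sites lie outside the deep stretch, in the body of 18S and in 25S. At U303 none of 393, 443 and 643 reads was mutated with mL, and 3 reads as the floor allow shares of up to 0.763%, 0.677% and 0.467%, against 0%, 12.4% and 0.182% with WT. Of the 89 mutated reads 88 were in WT replicate 2. Over the 3 mL libraries 0 of 1479 reads allow up to 0.203%, and the mean of WT replicates 1 and 3 was 0.0911%, below that limit.

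C956 was mutated in 1.11%, 0.687% and 0.244% of reads with mL, against 1.82%, 21.7% and 0% with WT. All but 7 of its 121 mutated reads were in WT replicate 2, and without that library the difference was log2 0.58, in the opposite direction. 25S A2384 was mutated in 0.190%, 0.221% and 0.241% of reads with mL, against 0%, 11.4% and 0.213% with WT. WT replicate 2 held 180 of its 185 mutated reads, and without it the difference was log2 -0.088. At both, the other 2 WT libraries lay on either side of the mL values or level with them.

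The untreated mature libraries showed the same kind of split at these positions. In BY4741 replicates 1, 2 and 3, C956 was mutated in 0.231%, 13.7% and 0.316% of reads, U303 in 0.0640%, 5.48% and 0.0803%, and U128 in 0.130%, 14.7% and 0.197%. BY4741 replicate 2 was the highest of the 3 at all 6 called sites. Of the 189 tested sites that BY4741 also covered at 50 reads or more, BY4741 replicate 2 was the highest at 136 and WT replicate 2 at 73, and both at 66. The filter had chosen many of these sites through WT replicate 2. Over the 3132 kept nucleotides outside the deep stretch, with no filter on mutations, the numbers were 1325 for BY4741 replicate 2, 463 for WT replicate 2 and 255 for both. What these 2 libraries have in common was not tested.

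The groups did not overlap at 27 of 213 sites (12.7%), 20 higher in mL and 7 lower. Of the 20, 17 had no mutated read in WT replicate 1, the shallowest library, as had 126 of all 213. In or within 20 nt of the deep stretch of 18S lay 6 of the 7 lower sites and 8 of the 20 higher ones, beside 93 of all 213, and the remaining lower site was 25S A386. By region, 7 of the 20 were in the 5′ ETS, and all 7 of those were G, as were 15 of the 24 tested sites there.

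The 24 tested sites of the 5′ ETS had a median log2 difference of 0.71, with 23 higher in mL and 0 called, beside 0.24 over all tested sites. Without a library factor 21 of 24 were higher, with a median of 0.58 beside 0.09. At a minimum of 10 mutations 96 of 137 were higher, and at 1 mutation 316 of 496, beside 552 of 941 and 2011 of 3535 over all sites. The 5′ ETS site G506 is an example, with 1.13%, 0.647% and 1.16% mutated reads with mL, against 0%, 0.508% and 0.481% with WT. G103 had 0.613%, 0.691% and 1.04% with mL, against 0%, 0.544% and 0.147% with WT. Both were chosen after their values were seen. Over all 561 kept 5′ ETS nucleotides, with no filter on mutations, the mean rate was 0.148%, 0.215% and 0.205% with mL, against 0.104%, 0.176% and 0.117% with WT, which overlap at WT replicate 2 (1.43-fold, exact p = 0.2).

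The 41 tested G sites had a median log2 difference of 0.74, with 38 higher in mL and 0 called. Without the library factor 35 were higher, with a median of 0.63. At a minimum of 10 mutations 389 of 550 G sites were higher, at 1 mutation 737 of 1087, and at a minimum depth of 200 reads 17 of 21. Over all sites the numbers were 552 of 941, 2011 of 3535 and 47 of 80. Without WT replicate 2, 30 of the 41 G sites were higher with a median of 0.45, beside 141 of 210 and 0.40 over all sites. With WT replicates 1 and 2 both left out, an alternative added after the data were seen, 24 of the 41 were higher and their median of 0.19 equalled that of all sites.

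**Figure D4:**
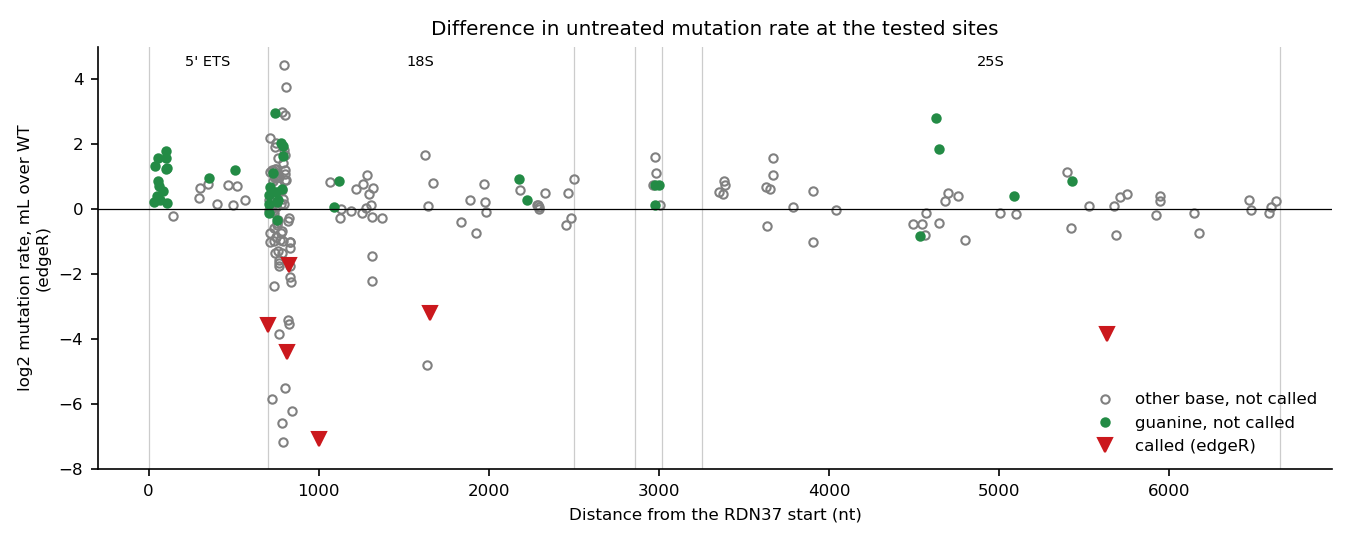
edgeR log2 difference in mutation rate, mL over WT, at the 213 tested sites against the distance from the RDN37 start. Red triangles are the 6 called sites, all below 0. Filled green points are guanines, of which 38 of 41 lie above 0.

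The 15 kept sites with the highest mean of the 6 rates were 11 in 18S and 4 in 25S. They comprised 7 A, 6 U, 2 C and 0 G, although G had the highest mean rate of any base with mL. They were 18S A119, U1191, C131, U128, U3, A940, U517, A67, A605, C114 and A1631, and 25S A2896, U1293, A1317 and U2148. The lowest of them had a mean of 6.22% and the next site outside, 25S A1545, one of 5.93%. edgeR called 3 of the 15, U3, C114 and U128, beside 6 of all 213 tested sites. WT replicate 2 was the highest library at 12 of the 15, beside 76 of the 213. The ranking used the mean of the 6 rates, WT replicate 2 included, so both counts rest in part on that choice.

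At A67, mutated reads were 13.1%, 18.4% and 14.2% with mL, against 3.03%, 8.14% and 9.87% with WT. The groups did not overlap, and mL was the higher one (15.2% ± 2.84 with mL and 7.01% ± 3.56 with WT, SD, n = 3 each, exact p = 0.1). edgeR gave log2 1.00 ± 0.492 with an adjusted p of 0.296, so the site was not called. Without WT replicate 3 it was called (log2 1.70, edgeR adjusted p = 0.0488), and without any other single library it was not. The log2 difference was 0.62 without WT replicate 1 and 0.71 without WT replicate 2 (edgeR adjusted p = 0.644 and 0.683). With both left out it was 0.070. A67 lies between the 2 deep windows, where depth was 6.30 times the 18S median in WT replicate 2 and 0.924 to 1.41 times in the other libraries. With DMS, A67 had 9.77% to 12.7% with mL and 9.92% to 18.9% with WT, so the mL values were not the higher ones there.

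U517 was mutated in 11.3%, 15.2% and 13.3% of reads with mL, against 2.67%, 18.5% and 6.19% with WT. The mL libraries sat between the WT libraries (exact p = 0.5). A940 had 14.5%, 12.7% and 7.94% with mL, against 8.93%, 16.3% and 9.06% with WT (exact p = 1), and 25S A2896 had 9.44%, 14.2% and 5.21% with mL, against 1.89%, 23.5% and 6.77% with WT (exact p = 0.9). At these 3 sites the spread among the WT libraries was wider than that among the mL libraries.

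U517, A940 and 25S A2896 were mutated in the treated pre-40S libraries as well, whereas U128, also among the 15, reached at most 0.294% there. U517 had 2.93% to 5.96% with DMS in mL and 6.86% to 21.5% in WT, and A940 had 8.81% to 9.81% in mL and 6.69% to 13.8% in WT. In untreated BY4741 they were far lower, at 0.0942% to 1.89% for U517 and 0.0526% to 1.00% for A940. At 12 of the 15 sites BY4741 replicates 1 and 3 lay below every untreated pre-40S library. That count leaves out BY4741 replicate 2, and the 15 sites were ranked by the same 6 pre-40S rates. It is therefore no test of a difference, and the share over all tested sites was not computed.

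**Figure D5:**
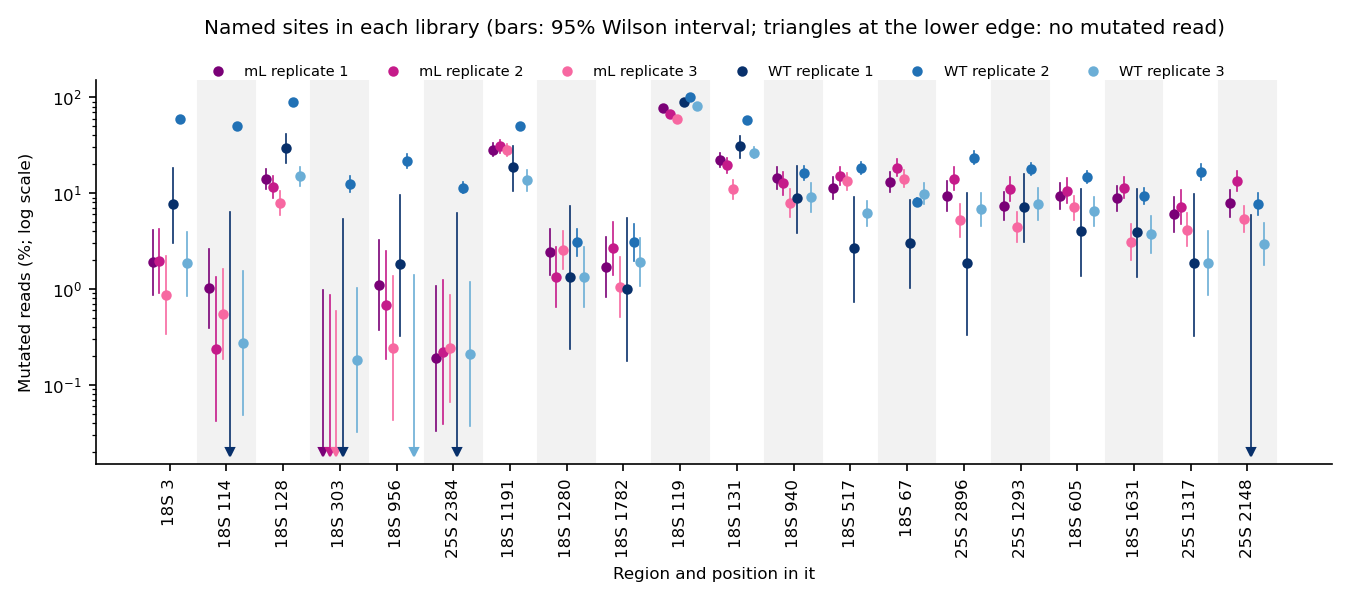
Mutated reads in percent (log scale) at the called, naturally modified and most mutated tested sites, labelled by region and position, for the 3 mL libraries (left in each column) and the 3 WT libraries, with 95% Wilson intervals. Triangles at the lower edge mark libraries with no mutated read. WT replicate 2 stands alone at C114, U303, C956 and A2384.

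Of 14 rRNA bases with known natural modifications, 10 reached the depth minimum and 3 were tested, and 0 of the 3 were called by edgeR. 18S U1191 carries a hypermodified pseudouridine (m1acp3Ψ) whose last group is added late in 40S maturation. It was mutated in 28.5%, 30.8% and 28.3% of reads with mL, against 18.9%, 50.3% and 13.6% with WT. The mL libraries lay within 3 percentage points of each other and the WT libraries on both sides of them (29.2% ± 1.39 with mL and 27.6% ± 19.8 with WT, SD, n = 3 each, exact p = 1). In WT replicate 1 that share rests on 10 of 53 reads.

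C1280, an N4-acetylcytidine, was mutated in 2.42%, 1.34% and 2.57% of reads with mL, against 1.35%, 3.07% and 1.34% with WT (exact p = 1). A1782, one of the pair of dimethylated adenines made by Dim1, was mutated in 1.69%, 2.65% and 1.04% with mL, against 1.00%, 3.08% and 1.93% with WT (exact p = 0.8). At both sites the groups overlapped and WT replicate 2 was the highest library.

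The other 7 kept modified bases were rarely mutated. These were 18S A974 and U999, whose modifications are guided by snR54 and snR31, C1773, G1575 and A1781, and 25S C2278 and C2870. Their group means were 0.0742% to 1.36% with mL and 0.0583% to 1.27% with WT, and all groups overlapped. U999, for example, was mutated in 1.74%, 2.16% and 0.162% of reads with mL, against 0%, 0.849% and 1.08% with WT (exact p = 0.4). 25S A645, A2142, U2634 and U2843 fell under the minimum because WT replicate 1 had 33, 29, 35 and 48 reads there, and their rates are not compared.

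Treated libraries of the same strains gave a separate reading of the sites tested here. Of the 213 sites 115 were also tested there, with 17 called, 16 lower in mL and 1 higher. Over all bases and sites edgeR called 34 of 1301 (2.61%), 32 lower in mL and 2 higher, so the lean toward lower was general. Without mL replicate 3 of the treated libraries that edgeR count was 0, although 101 sites had an unadjusted p under 0.05. Without mL replicate 1 or 2 or WT replicate 1 it was 22, 14 and 7. Of the 6 sites called without DMS, 3 were tested with DMS. C956 was the 1 of the 17 higher in mL (log2 4.26 ± 0.898), with 0.704%, 2.17% and 16.0% mutated reads in mL, against 0.592%, 0% and 0% in WT. Its mutated reads numbered 1, 8 and 45 in mL, against 2, 0 and 0 in WT. Without treated mL replicate 3 these fall short of the minimum of mutations that the test required. C956 was thus tested with DMS only because of that library, and no p is given for it. The single high library was on the mL side with DMS and on the WT side without it, and the difference between the 2 contrasts was not tested.

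U517 was called lower in mL with DMS (log2 -1.63 ± 0.338, edgeR adjusted p = 0.00353) and was not called without it (log2 0.62 ± 0.495, edgeR adjusted p = 0.763). 25S A2896 was likewise called lower with DMS (log2 -2.23 ± 0.390, edgeR adjusted p = 0.000755), against log2 -0.13 ± 0.545 without it (edgeR adjusted p = 0.976). Whether these contrasts differ between treated and untreated libraries was not tested.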

How the data were processed

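The authors deposited 1 profile per library, with 2 counts for each RDN37 nucleotide, mutated reads and effective depth, and their quotient, the mutation rate, as a fraction. The deposited fraction equalled mutations over effective depth within 5e-07. Reads were single-end of 100 nt per the labels' protocols, and the submitters' processing notes name Bowtie2; no counting program, filter or genome build is given in the sources used here. Region bounds came from the offsets of RDN37 features in a RefSeq table, and no chromosome coordinates are printed.

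Mutation counts were tested with edgeR 4.0.16 (R 4.3.3, quasi-likelihood test, Benjamini-Hochberg over all tested sites, called at an adjusted p under 0.05). The offset was log(effective depth × library factor), the factor being the median rate of a library over the geometric mean of the 6 libraries at sites mutated in all of them. The SE is the log2 difference over the square root of F. The factor was 0.956 to 1.20 in mL and 0.786 to 1.58 in WT libraries, so a log2 difference is relative to the typical site. Depth ratios used medians. Single values were compared with exact two-sided permutation tests over libraries. Floors are 3 counts over the depth, intervals are 95% Wilson.

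Named sites are all called sites, 14 known modified bases, the 15 sites of highest mean rate, and the deepest sites and runs. Members, lists and rules were chosen with earlier results of these data known. No 2 libraries shared identical counts at more than 0.466% of nucleotides. DESeq2 1.42.0 and limma 3.58.1 served as alternatives.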

Additional observations from a re-analysis of the deposited data

How the results depend on the processing

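The count of 6 called sites was 6 without a library factor and 6 with 0.5 added to each count in the factor, 9 and 5 at minimum depths of 20 and 100, and 4 without the deep stretch of 18S. It was 2 with DESeq2, 0 with limma, 12 and 15 at minimums of 10 mutations and 1 mutation, 0 at a minimum mean rate of 0.005, 2 at a minimum depth of 200 and 0 without both WT replicates 1 and 2. At unadjusted p under 0.05 limma had 24 sites and the mean-rate minimum 27. Leaving out 1 library gave 0 to 15. All 6 were lower in mL, but sites higher in mL were among the calls at the depth minimums of 100 (3 higher, 2 lower) and 200 (2 higher, 0 lower), at 10 mutations (2 higher, 10 lower) and 1 mutation (3 higher, 12 lower), and without WT replicate 3 (4 higher, 11 lower). The settings with 0.5 in the factor, without the deep stretch and without 2 WT libraries were added after seeing the data. For treated libraries, leaving out 1 library gave 0 to 45.

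The replicate numbers do not pair the samples: same-numbered libraries had correlations of deviations of -0.191, -0.109 and -0.0804 over the 213 sites. With the number as a replicate block 0 sites were called (18 at unadjusted p under 0.05), the 5′ ETS ratio was 1.26, the ITS1 ratio 0.989, the 25S ratio 1.11 and the G ratio 1.55, and treated sites called were 29.

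The mean instead of the median depth gave 1.91 for the 5′ ETS, 2.06 for 25S and, reversed, 1.58 for ITS1. Leaving out 1 library gave 1.04 to 1.39 for the 5′ ETS, 1.07 to 1.18 for 25S and 0.859 to 1.04 for ITS1. With only 18S past its 5′ domain as the denominator, the ratios were 1.17 for the 5′ ETS, 1.07 for 25S and 0.934 for ITS1. The A ratio of 1.04 turned to 0.380 with pooled rates and to 0.981 and 0.807 at depths of 20 and 100, with 0.901 to 1.39 over left-out libraries. The C ratio of 0.932 turned to 1.04 with pooled rates and 1.003 with the replicate block, and was 0.814 to 1.31 over left-out libraries. The U ratio of 0.833 turned to 1.31 with pooled rates and 1.19 at depth 100, and was 0.683 to 1.48. The G ratio stayed above 1 under every alternative run, at 1.45 to 2.10. The median of site rates was not used, since it was 0 in at least 1 library.

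Among named sites, the called C114 and C956 reversed without both WT replicates 1 and 2, to log2 0.55 and 3.96, and ranged over left-out libraries from -5.00 to 0.92 and from -3.92 to 0.58. The other sites that turned sign were never called. With minimums of 10 mutations, 1 mutation and a mean rate of 0.005, C1280 went to -0.067, -0.052 and -0.018, A940 to -0.080, -0.063 and -0.054, and A605 to -0.13, -0.12 and -0.10; with the first 2, U1191 went to -0.026 and -0.010. A940 went to -0.0058 with no library factor, -0.00011 without the deep stretch, and -0.024 with 0.5 in the factor, where A605 went to -0.0035. Without both WT replicates 1 and 2, A940 went to -0.17, A605 to -0.089 and 25S A1317 to 1.05. With limma and with the replicate block, 25S A2896 went to 0.29 and 0.0075 and A1317 to 0.42 and 0.26. Over left-out libraries the ranges were -0.54 to 0.0027 at A1782, -0.15 to 0.29 at A940, -0.56 to 0.47 at A2896, -0.17 to 0.34 at A605 and -0.49 to 1.28 at A1317. No other named site changed sign. The cause of these changes was not tested.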
